A study of Mus musculus with 2 samples.

Results

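Retained-intron transcripts are annotated copies of a gene's transcript that keep intron sequence between or beside its exons. Transcripts were chosen by their GENCODE mouse type, retained_intron, and by the measured depth of their gene, a nuclear protein-coding gene with an expected count of 100 or more in both libraries. The rule took 5603 of the 129984 transcripts listed in both libraries, and of the 14285 transcripts of that type. They belonged to 2151 genes, 46.5% of the 4627 nuclear protein-coding genes at that count. A gene held a median of 2 such transcripts and 773 genes held 1. Cspp1 (ENSMUSG00000056763), a centrosomal protein gene, held the most with 16. Transcripts of 1 gene share exons and reads, so they are not independent of each other.

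The study sequenced total RNA of primary erythroblasts, which are nucleated red cell precursors, in 2 libraries that form 1 group. Both came from C57BL/6J mice, male adults of 5 to 6 weeks with no treatment named, from 1 ng of RNA with spike-ins, at a labelled size range of 150 to 400 without a unit. The labels number them as biological replicates 1 and 2, with separate biosamples under a single donor entry, which leaves separate animals unstated. The labels link a protocol for isolating progenitors from bone marrow. With 1 group there was no comparison of conditions and no p-value, and the spread between the libraries may be technical.

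An intron is normally cut out of the precursor RNA between a GT at its start and an AG at its end. When it stays, the RNA is often held in the nucleus or broken down, and retention is known to rise in maturing erythroblasts, in genes of splicing factors and iron handling among others. Several splicing factors, such as the SR proteins and their CLK kinases, are known to control their own level through introns they keep. In total RNA, a finished transcript with a kept intron and a precursor not yet spliced cannot be told apart.

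The following sequences show what these transcripts carry, from genes that the values turn on. The first 5 are introns that a transcript keeps whole: Clk1-204 at chr1:58417180-58417266 on the minus strand, Tfrc-205 at chr16:32616899-32617096 on the plus strand, Pabpc1-204 at chr15:36598128-36598201 on the minus strand, Arhgap30-203 at chr1:171407636-171407727 on the plus strand and Fkbp4-202 at chr6:128433610-128433702 on the minus strand. The next pairs are the ends of longer introns kept whole, in Sf3b1-203 at chr1:55014563-55016375 and Slc25a37-203 at chr14:69247638-69249393, both on the minus strand. The last 2 are intron stretches of transcripts that start inside an intron, Hba-a1-202 at chr11:32283811-32283923 and Rps16-203 at chr7:28350924-28350991, both on the plus strand. All lie between coding exons on GRCm38 (mm10), are written from 5′ to 3′ and were read from GENCODE M21 transcripts. Capitals mark the bases at the splice sites.
Clk1-204 whole intron: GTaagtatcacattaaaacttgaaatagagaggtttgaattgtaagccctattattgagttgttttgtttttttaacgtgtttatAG
Tfrc-205 whole intron: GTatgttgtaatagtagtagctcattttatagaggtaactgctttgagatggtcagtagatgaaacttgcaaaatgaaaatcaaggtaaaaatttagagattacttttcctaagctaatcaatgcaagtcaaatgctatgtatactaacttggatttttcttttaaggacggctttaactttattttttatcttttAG
Pabpc1-204 whole intron: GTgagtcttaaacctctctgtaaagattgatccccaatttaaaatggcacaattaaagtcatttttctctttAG
Arhgap30-203 whole intron: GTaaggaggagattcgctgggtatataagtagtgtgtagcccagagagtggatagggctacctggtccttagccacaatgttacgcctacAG
Fkbp4-202 whole intron: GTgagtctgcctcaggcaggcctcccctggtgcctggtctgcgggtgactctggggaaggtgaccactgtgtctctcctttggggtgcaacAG
Sf3b1-203 first 30 bases: GTaattctttcccacttttctataagtatt
Sf3b1-203 last 30 bases: ttcttgtcctgttgctgttcttttctgcAG
Slc25a37-203 first 30 bases: GTattttgaaagcgtttgtctggagctggg
Slc25a37-203 last 30 bases: gcgggtaattttctggagtttgttttgcAG
Hba-a1-202 intron stretch: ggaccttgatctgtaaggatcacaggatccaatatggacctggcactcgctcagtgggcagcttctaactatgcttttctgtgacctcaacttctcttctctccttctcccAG
Rps16-203 intron stretch: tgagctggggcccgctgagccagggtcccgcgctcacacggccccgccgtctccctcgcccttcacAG

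The 5 whole introns measured 87, 198, 74, 92 and 93 bases, with 27.6%, 29.3%, 32.4%, 50% and 63.4% of G and C. Those of Sf3b1-203 and Slc25a37-203 measured 1813 and 1756 bases. The Hba-a1-202 stretch covers the last 113 bases of an intron of 122 bases, and that of Rps16-203 the last 68 of 140. Each of the 7 whole introns opens with GT and closes with AG, while the 2 stretches show only the closing AG.

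Set against the coding transcripts of the same genes, most of these transcripts carried only part of an intron. A whole intron of a coding transcript lay inside 1513 of the 5603, or 27.0%, in 936 genes. Another 3871, or 69.1%, held part of an intron, 30 held no intron base, and for 189 the deposited length or gene differed from the reference annotation. Intron made up 50% or more of the bases in 2159 transcripts. The other 3255 placed transcripts had less, with a median of 26.6% intron bases. Exons of 730 transcripts overlapped an exon of another gene, small RNA genes included in 115 cases.

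The introns kept whole were short. They numbered 1981 and had a median length of 277 bases, against 1443 bases for the 34778 other introns of the genes. Lengths of 300 bases or less were found for 1035 of them, 52.2%, and for 16.4% of the other introns. Only 1 was longer than 5000 bases, against 6151 of the others. The midpoints of the kept introns lay at a median of 62.2% of the gene's span, close to 61.2% for the others. Of the kept introns, 4.39% were a first intron, against 5.93%. An exon of another coding transcript covered 78 of them, 3.94%, against 1.10% of the others. Overlapping introns were counted separately, and the 1981 lay at 1727 separate places. These features describe the annotation and not the libraries.

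Between the lowest and the highest intron content, the mean and the median share of the gene's TPM differed in opposite ways. Under 20% intron, the median share of the gene's TPM was 0% in both libraries, the mean 10.1% and 11.1%, and 40.5% of the transcripts were at 0 counts in both. At 80% or more intron, the median was 4.22% and 2.41%, the mean 6.67% and 6.27%, and 13.5% were at 0. By counts, the mean share was 6.39% and 7.20% under 20% intron, and 6.48% and 6.19% at 80% or more. These classes also differed in median transcript length, 748.5 against 2767 bases, and the part of length was not tested.

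**Figure D1:**
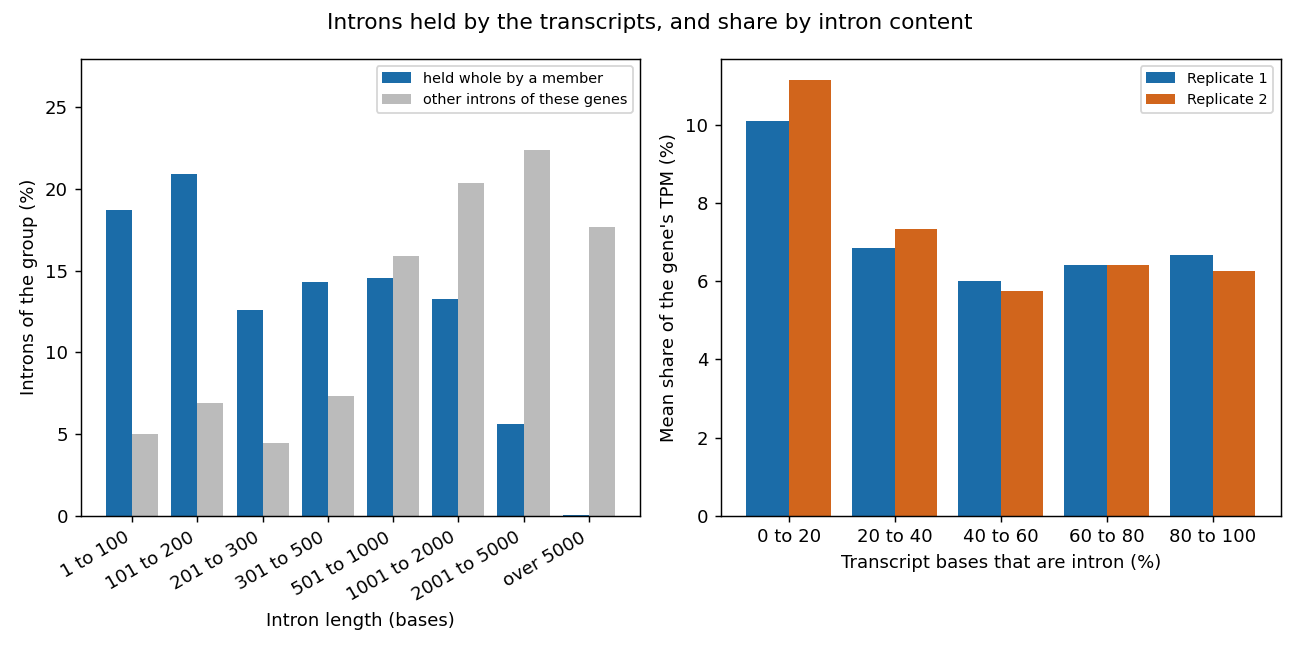
Left, introns by length in bases, as a percent of the 1981 introns kept whole by a retained-intron transcript and of the 34778 other introns of the same genes. Right, mean share of the gene's TPM in each library, by the percent of transcript bases that are intron; the highest bars, 10.1% and 11.1%, stand over transcripts with under 20% intron, where the medians were 0% in both libraries.

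Splice sites of the kept introns were of the usual kind. GT and AG stood at the ends of 1936 of 1981, or 97.7%, GC and AG at 25, AT and AC at 3, and other pairs at 17. Their G and C content had a median of 48.8%, against 50.7% for the rest of the transcripts that carry them. The starts GTAAGT and GTGAGT, read on the transcript's strand at the first base of the intron, stood in 230 and 278 introns. The start of the minor spliceosome class, GTATCCTT or ATATCCTT, stood in 11 introns, 0.555%, of 9 genes. Among these were Derl2, a protein of endoplasmic reticulum quality control, and Prim1, a DNA primase subunit. No sequence was read from the other introns of the genes, so no share of all introns is given. Each intron was then classed by the transcript with the most counts among those that keep it. Introns whose transcript had 10% or more of the gene's TPM in both libraries had a median length of 336 bases (n = 325). Those whose transcript was at 0 counts in both had 167 bases (n = 346), and those of the other transcripts had 311 bases (n = 1310). The part of transcript length in this was not tested.

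Few of the reads fell on nuclear protein-coding genes of enough depth, with or without such a transcript. The libraries held 80806663 and 117032607 expected counts, of which the 2151 genes took 2.81% in replicate 1 and 2.99% in replicate 2. All 4627 nuclear protein-coding genes at the count minimum took 4139877 and 6399397 counts, and the 2151 genes 2268001 and 3501328 of these. The retained-intron transcripts themselves held 415914 and 662882 counts, 0.515% and 0.566% of the libraries. Erythroid markers were present at 1 TPM or more for 12 of 12, from 2.98 TPM for Klf1 to 7310 TPM for Hbb-bs as means of the libraries. Neutrophil markers were also present for 9 of 9, summing to 2026 and 2334 TPM against 21250 and 22978 TPM for the erythroid list. At 1 TPM stood 0 of 4 B lineage markers and 1 of 4 T and NK markers, with Cd3d and Cd8a at 0. It was reached by 4 of 6 monocyte and 2 of 3 megakaryocyte markers. In these bulk libraries fewer cells of a type and less RNA per cell cannot be told apart, and the part of neutrophil RNA in the shares was not tested.

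Retained-intron transcripts held 28.6% of the TPM of their genes in replicate 1 and 30.01% in replicate 2 (29.3% ± 1.01, SD, n = 2). TPM is a length-corrected abundance scaled to a fixed total per library. By expected count, an estimate of reads, the share was 18.3% and 18.9% (18.6% ± 0.420). The beta and alpha globin genes Hbb-bs and Hba-a1 took 70.6% and 72.0% of that TPM, and 41.4% and 42.7% of the counts. Without these genes, the share was 12.7% and 12.8% by either unit. Hba-a2, an alpha globin gene with 7156 and 7447 TPM, stayed in this total, and leaving it out was not tried. Transcripts with 50% or more intron held 4.64% and 4.69% of the counts of the genes other than Hbb-bs and Hba-a1. They carried 21.5% and 21.0% of all retained-intron counts, globins included.

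Coding transcripts held most of the rest, and the other noncoding types held little. Protein-coding transcripts, 7751 in number, took 66.2% and 64.8% of the TPM. The 1345 transcripts of the nonsense-mediated decay type, a class with early stop codons, took 1.39% and 1.40%. The 1997 transcripts of the processed type, which have no open reading frame, took 3.74% and 3.75%. A count of 0 in both libraries was found for 32.7% of retained-intron transcripts, 39.5% of coding, 53.8% of decay and 59.0% of processed transcripts.

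Most single transcripts held little of their gene. The median share of TPM was 1.65% in replicate 1 and 0% in replicate 2, and the upper quartile 9.29% and 8.72%. A count above 0 was found in both libraries for 2219 transcripts, in 1 library only for 1554, and in neither for 1830. By the deposited posterior means, 196 were at 0, and the median share was 3.49% of TPM as a mean of the libraries, against 0.827%. A count of 0 allows up to 3 counts, which for a transcript of 1 kb is 0.0482 TPM in replicate 1 and 0.0333 TPM in replicate 2; this covers counting error only. At 10% or more of the gene's TPM in both libraries stood 759 transcripts, 13.5%, against 9.55% of decay and processed transcripts and 20.5% of all transcripts of these genes. At 50% or more stood 62, or 1.11%, against 1.62% of decay and processed transcripts. Of these 62, 1 was 50% or more intron, 56 were less, and 5 differed from the reference.

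Summed over a gene, the shares were larger. The median gene had 10.7% of its TPM in retained-intron transcripts in replicate 1 and 9.43% in replicate 2, or 4.67% and 4.14% of its counts. A sum of 50% or more of TPM in both libraries was found for 159 of 2151 genes. The same rule took 41 of the 1077 genes with a processed transcript, or 3.81%. By counts the number was 88 of the 2151 genes, and 66 passed by both units. Such a transcript was the gene's most abundant in both libraries in 150 genes, the same one in 126, while 300 genes had 0 in both libraries. For the calls by counts, by the most abundant transcript and at 0, no other transcript type was set beside them. Just inside the depth limit, 114 genes with a lower count of 100 to 110 had median shares of 7.59% and 2.95%. Just outside it, 106 genes with 90 to 100 counts had 3.06% and 1.95%.

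Transcript length moved with both detection and unit. The transcripts had a median length of 797 bases (119 to 11590). Under 400 bases, 142 of 271, 52.4%, were at 0 in both libraries, against 214 of 1470, 14.6%, at 2000 bases or more. The share at 10% or more of the gene's TPM in both was 8.12% and 21.2% in these classes. Among transcripts with at least 20 counts, the TPM share of the shortest was 4.55 and 7.18 times the count share as a median. For the longest it was 0.906 and 0.902 times. The deposited effective length was 135 bases below the length in replicate 1 and 151 in replicate 2, so the correction for length is steepest for the shortest transcripts. Processed transcripts had the same order, from 75% at 0 in the shortest class to 29.2% in the longest.

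**Figure D2:**
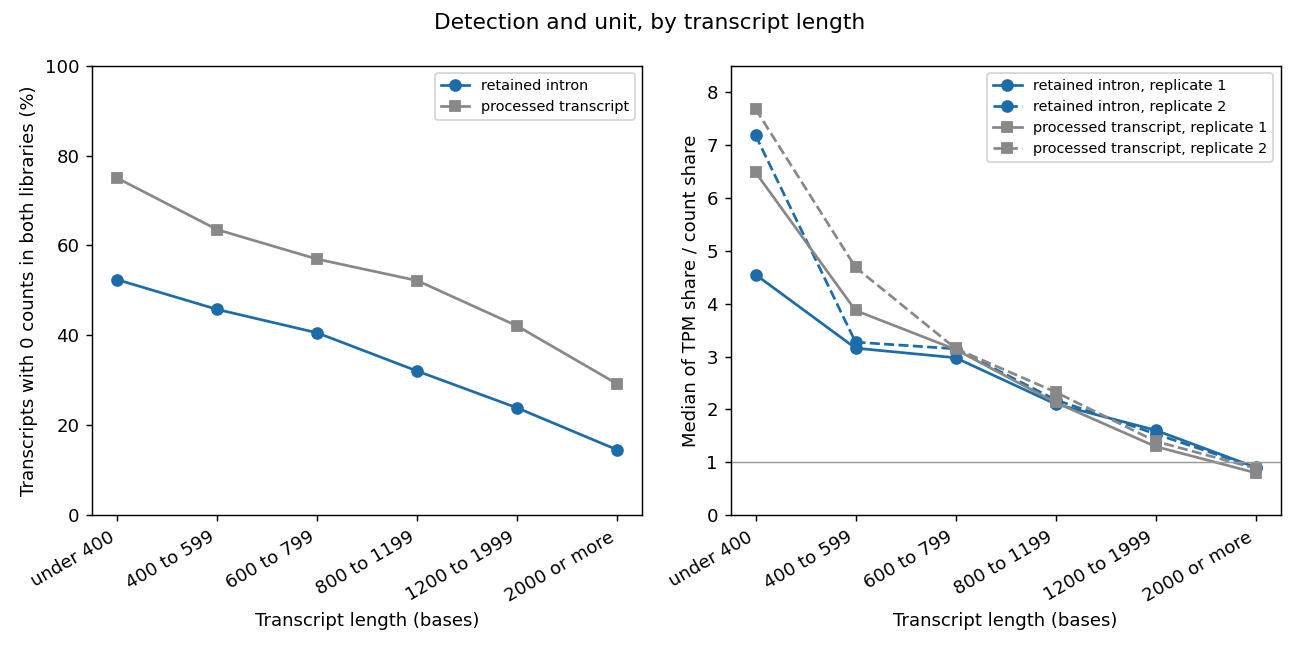
Left, percent of transcripts with 0 counts in both libraries by transcript length in bases. Right, median ratio of TPM share to count share among transcripts with at least 20 counts, in each library, for retained-intron and processed transcripts; the line at 1 marks equal shares, and the ratio lies below it in the longest class.

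Of all genes, Hbb-bs and Hba-a1 had the most TPM in such transcripts. Hbb-bs-202, a transcript of the adult beta globin gene, stood at 4941 TPM in replicate 1 and 5881 TPM in replicate 2, or 72.5% and 75.4% of the gene's TPM. Its deposited length of 549 bases differed from the reference, so no intron share is given for it. Hba-a1-202, of an alpha globin gene, stood at 969 and 955 TPM, 31.7% and 30.9% of the gene, with 22.9% intron bases. Both genes have near-identical copies, Hbb-bt and Hba-a2, which share reads with them, so these values are uncertain. Replicate 2 was the higher library for Hbb-bs-202 and the lower for Hba-a1-202.

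In heme synthesis, Ppox, the gene of protoporphyrinogen oxidase, had 57.8% and 56.1% of its TPM in 5 such transcripts, and 76.7% and 75.9% of its counts. Nearly all of it was Ppox-207, with 34.8% intron bases and 7 annotated introns, some of them overlapping, at 4 separate places, at 11.98 and 11.51 TPM. Urod, the gene of uroporphyrinogen decarboxylase, had 70.0% and 57.4% of its TPM in 7 transcripts, with Urod-205 alone at 38.3% and 34.1%. For Alas2, the erythroid enzyme that opens this pathway, the only such transcript stood at 17.2 and 23.5 TPM, 9.80% and 12.8% of the gene. At 0 in both libraries was that of Hmox1, the heme-degrading oxygenase.

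Iron uptake genes differed in how much intron their transcripts carried. Tfrc, the transferrin receptor, had 62.7 of 89.4 TPM in these transcripts in replicate 1 and 72.8 of 97.5 TPM in replicate 2. Tfrc-204 made up 47.2% and 47.1% of the gene with 9.24% intron bases and no whole intron. Tfrc-205, which holds the intron of 198 bases printed above, made up 19.5% and 22.9% of TPM but 2.95% and 3.44% of counts. Slc25a37 codes for mitoferrin-1, the importer of iron into mitochondria. Its single such transcript Slc25a37-203 held 9845 and 15084 counts, 23.6 and 24.6 TPM, or 13.7% and 14.0% of the gene, with 29.6% intron bases. Tmcc2-205, also among the 5 transcripts with the most counts, held 5387 and 8485 counts, 12.8% and 14.0% of its gene's TPM, with 1 whole intron and 30.9% intron bases.

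The CLK kinases act on SR proteins. For Clk1, 26.1 and 25.9 of its 70.4 and 70.2 TPM lay in 7 such transcripts. By counts the share was 60.8% and 62.4%, a difference of units that reaches past the spread between the libraries. Clk1-204, with 3 whole introns and 69.4% intron bases, held 1624 and 2297 counts. Clk4, a related kinase, had 37.0% and 46.1% of its TPM in 7 transcripts, of which Clk4-213 held 204 and 327 counts, with 5 annotated introns at 3 separate places.

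Among SR proteins, Srsf3 had 55.4% and 58.9% of its TPM in these transcripts, and 41.8% and 41.0% of its counts. Srsf5 had 26.8% and 29.9% of TPM, and 42.1% and 47.4% of counts. Srsf11 reached 67.3% and 60.03% of TPM, while Srsf2 stood at 9.46% and 6.14% and Srsf6 at 2.99% and 8.79%. Of 23 listed SR proteins and relatives, 14 had such a transcript in a gene of enough depth, the kinase gene Clk4 among them. Their pooled share was 25.3% and 26.1% of counts, with 14.5% and 13.4% in transcripts of 50% or more intron.

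The spliceosome core list, with 27 genes, had 15.3% and 16.2% of counts in these transcripts and 10.5% and 11.5% in those of 50% or more intron. Sf3b1, a subunit that binds the branch site with the U2 particle, had 34.7% and 40.5% of its TPM there. Sf3b1-203, with the whole intron of 1813 bases, held 277 and 596 counts, 16.4% and 21.5% of the gene's TPM. Rbm5, a splicing regulator with 13 such transcripts, had 54.1% and 59.4% of TPM, led by Rbm5-219 with 722 and 1269 counts. Rbm17 stood at 52.6% and 76.4% of TPM, Snrnp200, a helicase, at 64.2% and 36.6%, and Snrpb, a core Sm protein, at 0. By counts, Rbm17 stood at 21.6% and 46.1% and Snrnp200 at 19.4% and 4.82%.

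The hnRNP proteins package and regulate nascent RNA. The 13 hnRNP genes had 5.45% and 6.11% of counts in these transcripts, and 1.88% and 1.84% in those of 50% or more intron. Their median gene share was 9.35% and 9.33% of TPM. Hnrnpk was at 31.7% and 55.2% of TPM, Hnrnpl at 45.8% and 18.4%, and Hnrnpd at 0. By counts, Hnrnpk was at 11.6% and 26.5% and Hnrnpl at 32.6% and 22.0%. Hnrnpll, a splicing regulator, stood at 11.5% and 9.33%. Ddx39b, an export helicase, stood at 9.33% and 4.39% of TPM.

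The erythroid splicing regulators had the highest pooled share of the function lists by counts, 36.5% and 34.4%, over 4 genes. Rbm38 gave 30.8% and 26.4% of TPM and 49.3% and 48.0% of counts, mostly in Rbm38-203, which keeps 1 intron annotated with 2 alternative starts. Mbnl1 gave 27.9% and 30.3% of TPM, with Mbnl1-205 at 462 and 854 counts and 75.9% intron bases. Celf2 gave 19.2% and 22.9%. Lowest was Khdrbs1 at 2.00% and 11.7% of TPM.

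**Figure D3:**
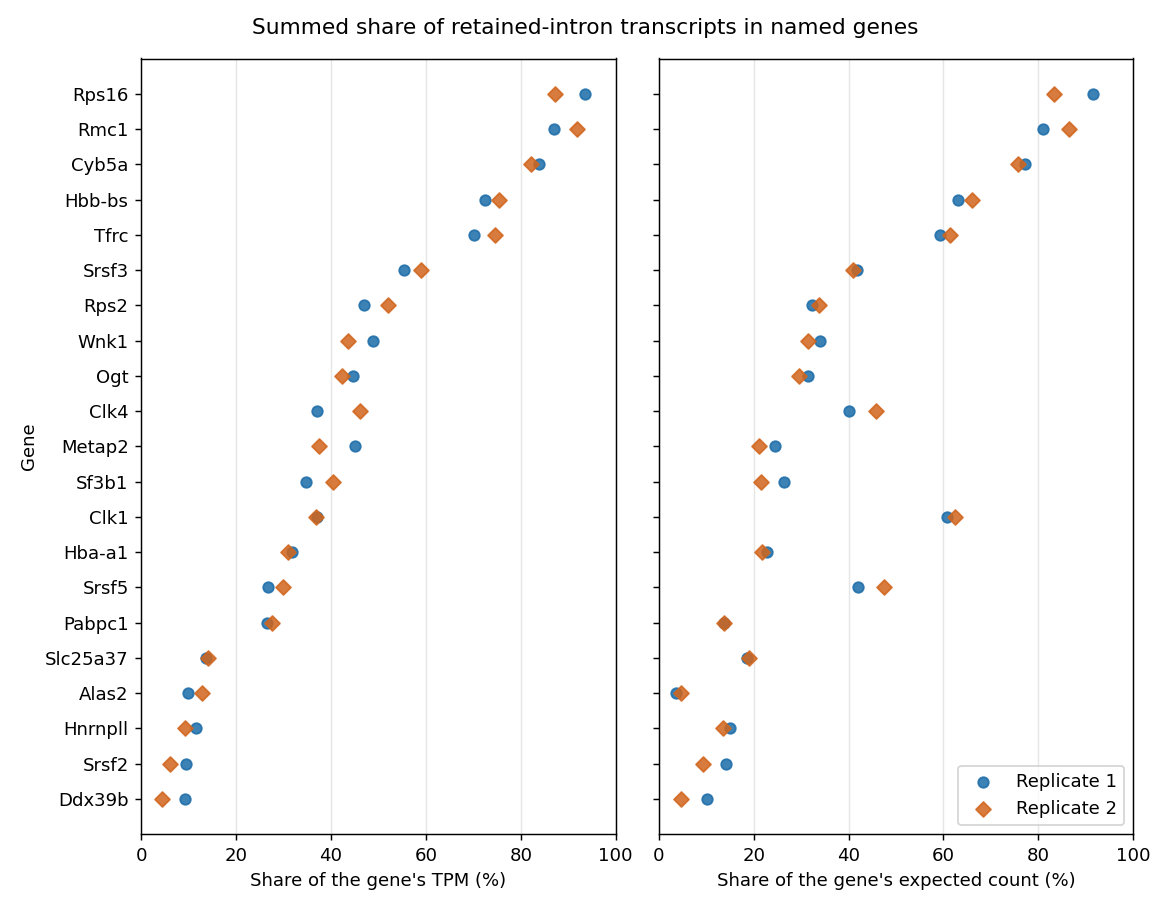
Share of each gene's TPM (left) and expected count (right) in retained-intron transcripts, with 1 point per library. Shown are the 10 genes with the most such TPM and genes listed for known retention or self-controlled splicing; Clk1 stands at 37.1% and 36.8% of TPM but at 60.8% and 62.4% of counts.

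Of 26 genes listed for known retention in erythroid cells or for self-controlled splicing, 23 had enough depth and 14 had such a transcript. The pooled counts of these 14 were 44.4% and 46.8%, with the globins included, and their median gene share was 29.2% and 30.4% of TPM. Ogt, the enzyme that adds O-GlcNAc to proteins, had 13.9 of 31.2 TPM and 13.1 of 30.9 TPM in such transcripts. Almost all of it was Ogt-204, with 1 whole intron, 77.0% intron bases and 2742 and 3800 counts. Genes at enough depth from which the rule took no transcript were Ankrd10, Epb41, Gata1, Hnrnpa2b1, Hnrnph1, Slc4a1, Snrnp70, Srsf7 and Tra2a. Too low in count were Clk2, Slc25a28 and U2af1. This list was drawn up with earlier results of these libraries known, so its shares are a description.

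Ribosomal protein genes spread widely. Over 44 genes the pooled share was 8.38% and 8.68% of counts, the median gene was at 1.77% and 1.29% of TPM, and 7 genes were at 0. Rps16 had 93.6% and 87.2% of its TPM in Rps16-203, at 30.3 and 32.9 TPM, with 13.1% intron bases. Rps20 had 96.4% and 97.5%, and Rps2 47.0% and 52.0%. Rpl39 was at 0. Processed copies of ribosomal protein genes can share reads with them, which makes these values uncertain.

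In translation, Pabpc1, the poly(A)-binding protein, had 79.1 and 86.6 TPM in 4 such transcripts, 26.4% and 27.6% of the gene. Pabpc1-204, with the whole intron of 74 bases printed above, was at 37.8 and 35.5 TPM. Metap2, an aminopeptidase that removes the first methionine, had 73.0 and 54.1 TPM, 45.1% and 37.4%. Eef1g-205, of an elongation factor, made up 69.9% and 80.3% of its gene with 8.10% intron bases. Eif4g3 was at 0. Pooled over 20 translation factor genes, the count share was 11.5% and 10.9%.

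Membrane and skeleton genes were low, with 5.85% and 6.14% of pooled counts over 14 genes. Mpp1, a scaffold protein of the red cell membrane, had 26.5% and 22.4% of its TPM in such transcripts, and Sptb, beta spectrin, was at 0. Piezo1, a mechanically gated channel, had 42.1% and 69.8% of TPM but 3.54% and 12.6% of counts. Wnk1, a kinase of ion transport, had 31.1 and 31.6 TPM in 6 such transcripts, 48.7% and 43.5% of the gene. Cyb5a, cytochrome b5, had 38.1 and 41.3 TPM, 83.9% and 82.2% of its gene, and Rmc1, a protein of endosome traffic, 34.2 and 40.5 TPM, 86.9% and 91.8%.

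The remaining lists covered other roles. The 19 proteasome genes had 14.5% and 14.4% of pooled counts, with Psmf1, an inhibitor subunit, at 53.1% and 62.8% of TPM. The 27 ubiquitin and autophagy genes had 11.4% and 11.8%, with Uba7, the activating enzyme of ISG15, at 85.7% and 81.7% of TPM. For 26 genes of oxidative phosphorylation the counts gave 11.6% and 12.8%, led by Atp5j at 89.8% and 94.0% of TPM. For 23 cell cycle genes they gave 7.74% and 6.50%, led by the helicase subunit Mcm3 at 83.4% and 83.5% of TPM. By counts, Uba7 stood at 63.3% and 62.5% and Mcm3 at 48.8% and 47.0%. Intron made up 13.3% of the bases of Mcm3-202, 9.36% of Mcm3-203 and 4.28% of Mcm3-205. In transcripts of 50% or more intron, the proteasome list had 9.00% and 8.01% of counts and the ubiquitin and autophagy list 4.44% and 4.50%. Oxidative phosphorylation had 2.71% and 1.86% there, and cell cycle genes 1.59% and 0.965%. Chromatin regulators, 34 genes, had 6.11% and 7.93%, and nuclear pore genes, 18 in number, 7.65% and 8.15%.

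Erythroid transcription factors, 7 genes, had 11.0% and 3.92% of pooled counts, the widest gap between the libraries of the lists in points. Myb, a progenitor factor, was at 20.9% of TPM in replicate 1 and 1.93% in replicate 2. Erythropoietin signalling genes, 5 with such a transcript, had 0.852% and 0.261%. Neutrophil and monocyte genes, 8 in number, had 3.25% and 3.43% of pooled counts. In that list Prtn3, a granule protease, was at 48.4% and 53.4% of TPM, Mpo, myeloperoxidase, at 7.21% and 6.45%, and Fcgr3, an Fc receptor, at 0.

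**Figure D4:**
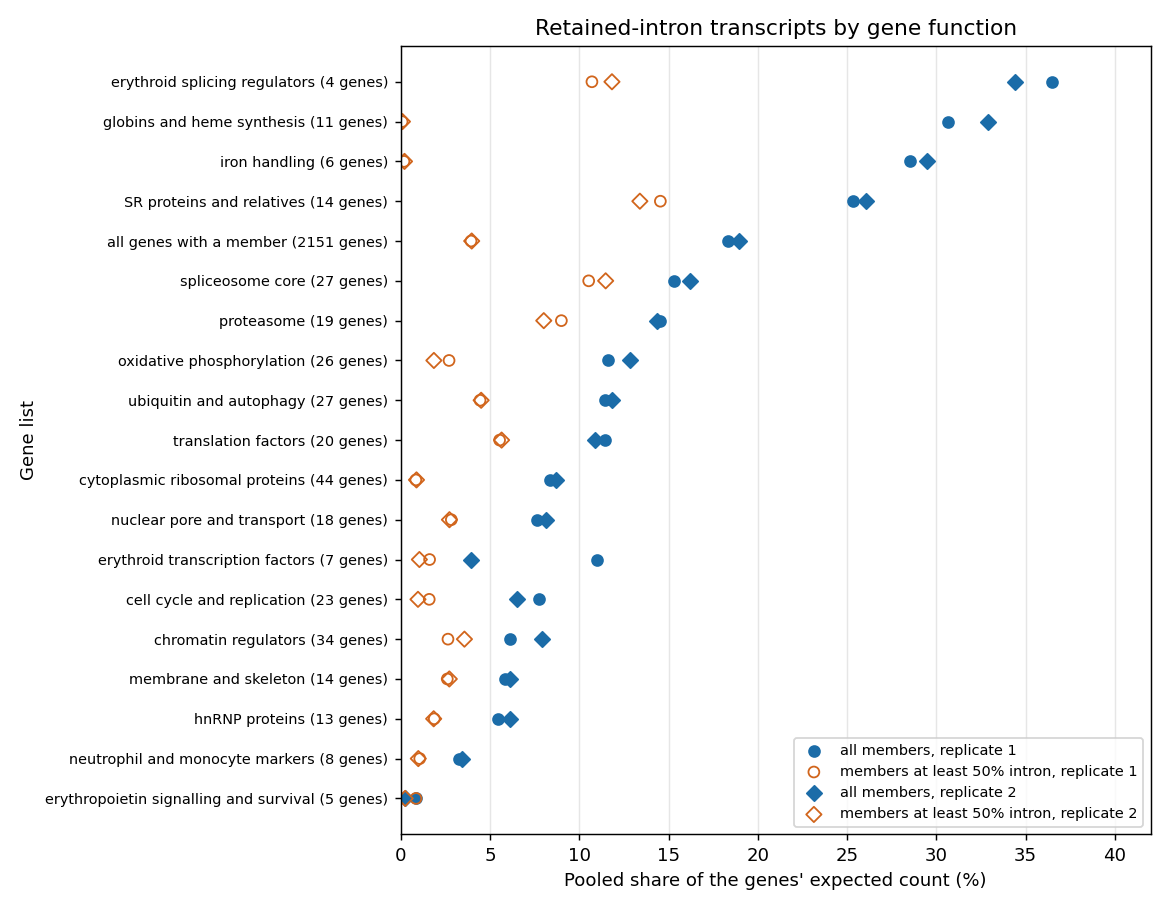
Pooled share of expected counts in retained-intron transcripts for each gene list and for all 2151 genes, with 1 point per library. Filled points take all such transcripts and open points those with 50% or more intron bases; for globins and heme the filled points stand at 30.6% and 32.9% and the open points at 0.0744% and 0.0941%, with Hbb-bs-202, whose intron content is not known, in the filled points only.

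By all retained-intron transcripts, globins with heme synthesis (30.6% and 32.9% of counts, 11 genes) and iron handling (28.5% and 29.5%, 6 genes) stood above SR proteins and relatives. In iron handling, 2 genes were at 0, and the median gene had 14.2% and 9.64% of its counts. Tfrc held 10988 and 17760 of that list's retained-intron counts and Slc25a37 9845 and 15084. By transcripts with 50% or more intron, globins with heme had 0.0744% and 0.0941% and iron handling 0.178% and 0.210%. SR proteins and relatives had 14.5% and 13.4%, in a list that takes in the kinase gene Clk4. The part of single genes in that share was not tested. Of the globin and heme counts, 25.3% and 28.03% lay in 2 transcripts whose length or gene differs from the reference, Hbb-bs-202 among them, so their intron content is not known and the values for 50% or more intron leave them out. For all genes, transcripts with 50% or more intron held 3.94% and 3.97% of counts. The lists were not tested against other genes.

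The transcripts with 50% or more intron and the most counts were picked after their values were seen. Wnk1-211 led with 2866 and 4364 counts, and 17.9% and 16.3% of the gene's TPM. Bsdc1-202 held 1998.9 and 3096 counts with 86.0% intron bases, and 23.8% and 27.1% of TPM. March3-203, of a ubiquitin ligase gene, held 2081 and 2863 counts and 87.5% and 85.8% of the gene's counts. Klhl12-206, of an adaptor of a Cullin ligase, held 1270 and 2280 counts, 97.0% intron bases and 47.0% and 51.4% of the gene's counts. Specc1-204, Slc43a1-205, Herc1-206 and the named Clk1-204, Ogt-204 and Pabpc1-203 completed the 10, with 10.8% to 30.4% of their genes' counts except Pabpc1-203 at 4.09% and 4.03%. March3-203, Klhl12-206, Specc1-204 and Pabpc1-203 held no whole intron.

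The 10 transcripts with the highest mean share among those with 100 counts or more in both libraries carried little intron. Their intron bases ran from 1.98% to 25.9%, with a median of 12.8%, and 5 of the 10 held a whole intron. Of all 369 transcripts at that depth, 146 held a whole intron and 156 had 50% or more intron bases. The difference between the 10 and the 369 was not tested. Arhgap30-203, of a GTPase-activating protein, made up 94.9% and 77.7% of its gene with the intron of 92 bases printed above. Fkbp4-202, of a chaperone partner, made up 78.0% and 75% with the intron of 93 bases. Oip5-201 made up 100% and 76.4%, Arhgap45-205 80.8% and 77.5%, Asb6-205 75.8% and 90%, and Tmc6-207 86.5% and 83.6%. Atp5j-208 made up 85.4% and 93.4%, C1qbp-202 70.0% and 82.8%, and Rps16-203 and Eef1g-205 are given above.

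How far the libraries agreed depended on the depth of the gene. In genes with a mean of 100 to 300 counts, the median gap in TPM share was 8.43 points over 1221 transcripts detected in either library. It was 5.73 points at 300 to 1000 counts, 3.18 at 1000 to 3000 and 1.48 at 3000 or more (n = 321). In count share the gap was 4.52 points in the shallowest class and 0.578 in the deepest. Shared reads and counting alone, from the deposited posterior SD and binomial error, gave an expected median of 1.76 and 0.194 points. Of 3773 transcripts, 1894, or 50.2%, lay within 2 SD of that error. Pearson's r across the 321 deepest transcripts was 0.919 and Spearman's rho 0.834, and these points share libraries and genes.

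**Figure D5:**
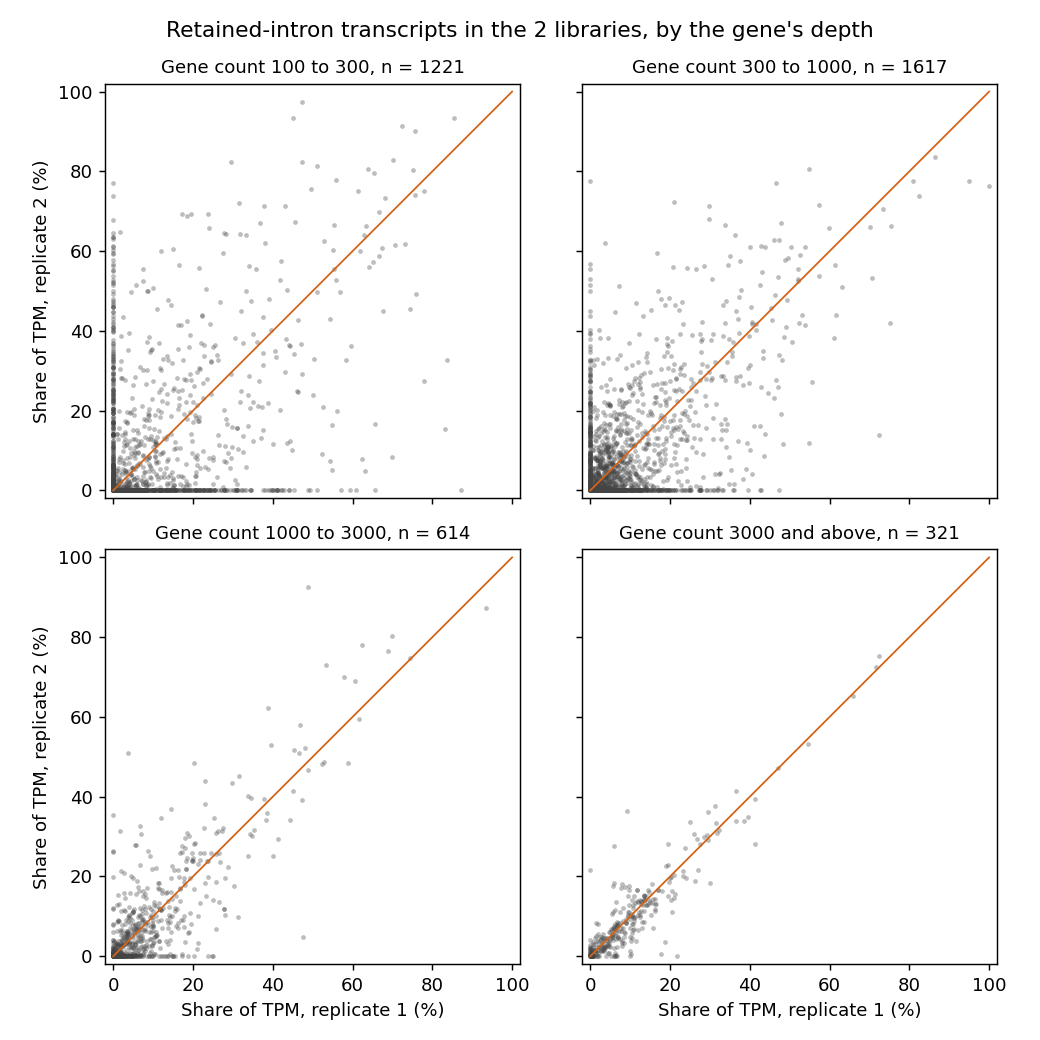
Share of the gene's TPM in replicate 2 against replicate 1 for each retained-intron transcript with a count in either library, in 4 classes of the gene's mean count. The line marks equal shares; points on the axes, at 0 in 1 library, make up 55.0% of the shallowest class and 14.0% of the deepest.

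A gap of 10 points or more in TPM share was found for 1160 transcripts, 20.7%, against 23.2% of all transcripts of these genes. It was higher in replicate 2 for 594 and in replicate 1 for 566. Higher in replicate 2 were Helb-202, of a DNA helicase, at 0 and 151 counts, Ndufb10-205, of a complex I subunit, at 0 and 174 counts, and Clic1-202, at 0 and 146. The same held for Ddhd1-205, of a phospholipase, at 15.6 and 342 counts, and Trappc11-204 at 0 and 134. Higher in replicate 1 were Pak1ip1-203 at 161 and 0 counts, St7-220 at 128 and 0, and Sri-201, of a calcium-binding protein, at 218 and 128. So were Ube2m-205, of a NEDD8-conjugating enzyme, at 143 and 17.4, and Rps20-202 at 226 and 55.9. For Rps20, the other transcript Rps20-201 moved the other way, from 276 to 1260 counts, while the gene's summed share was 96.4% and 97.5%.

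At 100 counts or more in both libraries stood 369 transcripts of 275 genes. Of these, 156 had 50% or more intron, with a median TPM share of 13.7% in replicate 1 and 13.4% in replicate 2 and a median gap of 2.16 points. The 198 with less intron had 25.5% and 28.1%, with a gap of 4.09 points. Over all transcripts the medians stood the other way, at 3.05% and 0.935% with 50% or more intron and at 0% in both libraries with less.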

How the data were processed

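Total RNA of 2 erythroblast libraries was analysed from the deposited tables per gene and per transcript. Per the deposited read-me, they were quantified from a transcriptome alignment on mm10 with annotation M4. What aligned and quantified the reads is not given in the sources used here. Expected counts, as deposited, are the authors' estimated reads per feature, not whole numbers. The deposited TPM and FPKM values were scaled by the authors to each whole table. The deposited posterior mean of TPM, a score, and posterior counts with their SD served as alternatives and errors. The deposited percent of each gene's TPM differed from the shares computed here by at most 0.54 and 0.63 points.

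Types, symbols and exons came from GENCODE M21 on the same build, and 97 of 16806 transcripts of the genes were not matched. Shares are a transcript's TPM or count over that of its gene. An intron counted as kept whole when it lay inside a transcript's exon. Calls used 10% and 50% of TPM in both libraries. A chi-square comparison of rounded counts (558849 on 11433 degrees of freedom) found that the libraries differed by more than counting error, taking reads as independent. Steps were tested on simulated data. Values used Python 3.11.15, numpy 2.4.6, pandas 2.3.3 and scipy 1.17.1.

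Members and lists were chosen with earlier results of these data known. Named were the 10 genes with the most TPM in such transcripts, the 10 transcripts with the highest share at 100 counts in both libraries, the 5 with the largest gap each way, up to 3 highest genes and 1 lowest per list, the genes of known retention, and the 5 transcripts with the most counts. Some are described only within their group, and some are not reported here. Alternatives were the unit, the gene minimum, transcript length, the reference length, overlapping genes and each replicate left out. Those without Hba-a1 and Hbb-bs and those by intron content were added after seeing the data.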

Additional observations from a re-analysis of the deposited data

How the results depend on the processing

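With posterior means, the median transcript share became 3.488% of TPM and 0.8% of counts, the gene median 13.93%, the SR protein share 29.88%, and 196 transcripts were at 0. By count in place of TPM, the pooled share was 18.64%, the gene median 4.404%, the SR share 25.7%, 88 genes passed 50% and 499 transcripts differed by 10 points; in the reverse exchange, the pooled count share became 29.3% and the median transcript share 0.8274%. At a gene minimum of 500 counts, the values were 3.01% and 0.9694% per transcript, 19.83% pooled by count, 13.5% per gene, 52 genes, 304 transcripts at 10%, 335 at 0, 6.758% for the longest class and 234 differing. At 1000 counts they were 4.248% and 1.275%, 30.98% and 21.0% pooled, 15.49% per gene, 28 genes, 192 at 10%, 111 at 0, 8.788%, 29.65% for SR proteins and 66 differing.

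Transcripts of 400 bases or more gave 29.34% for SR proteins. Those with the reference length, which leave out Hbb-bs-202, gave 14.93% of TPM and 12.96% of counts pooled, and 25.35% for SR proteins. Those overlapping no other gene gave 17.76% of counts, 8.813% per gene and 33.58%. Leaving out a replicate gave 234 to 303 genes at 50%, 1310 to 1327 transcripts at 10% and 2447 to 2767 at 0, since 1 library then has to pass in place of 2.

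Of the alternatives added after seeing the data, leaving out Hba-a1 and Hbb-bs, with Hba-a2 kept, gave 12.75% of TPM and 12.73% of counts. Transcripts with a whole intron gave 0.9284% per transcript by count, 11.46% and 12.92% pooled over their genes, 4.832% per gene, 21 genes, 212 at 10%, 402 at 0, 14.5% for SR proteins and 254 differing. Those with 50% or more intron gave 0.9314%, 9.924% and 8.947%, 4.351%, 7 genes, 265, 534, 15.68% and 360, with a median kept intron of 601 bases. Fewer transcripts enter these counts by construction; for the other changes the cause was not tested. No paired analysis was possible because the design holds 1 group.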

Other observations

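Outside the rule stood 35 retained-intron transcripts of 7 noncoding genes with 100 or more counts in both libraries. Gas5, a host gene of small nucleolar RNAs, had 20 of them, with 64.3% of its TPM in replicate 1 and 63.4% in replicate 2. Other small nucleolar RNA hosts were also high, Snhg5 at 74.9% and 64.7% and Zfas1 at 64.7% and 58.5%. 1810026B05Rik stood at 44.1% and 34.7%, Trerf1 at 16.0% and 52.8%, 5530601H04Rik at 11.1% and 8.33%, and Tmem134 at 0 in both libraries.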
